A study of Rattus norvegicus with 6 samples.

Results

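The genes described here regulate acid and base in the cell: 6 carbonic anhydrases (Car2, Car3, Car4, Car9, Car12 and Car14), the sodium-proton exchanger Slc9a3 and the bicarbonate transporters Slc4a2 and Slc4a7. They were taken by gene name from a table of 43035 rows, of which 32883 are annotated genes, together with any row without an annotation (an unannotated row) that overlaps one of them on the same strand. All 9 names were found, and 1 unannotated row, over Car12, was added. The 9 genes were chosen by their measured values in the comparison below, so their differences between groups are given as a description, without p-values.

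RNA-seq had been performed on primary cardiomyocytes isolated from hearts of Sprague-Dawley rats at postnatal day 1 and cultured in medium with 10% serum. One group of 3 libraries came from cells transfected with a scrambled siRNA (si-NC), and the other of 3 from cells transfected with an siRNA against DYRK1A (si-DYRK1A), a protein kinase. All were collected 48 h after transfection, and the submitters describe them as biological replicates. The labels name neither separate cultures nor litters, so p-values measure only the spread between these libraries. The question was how expression differed after the siRNA against Dyrk1a.

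The libraries held 10325074 to 11921772 counts in si-NC and 10703229 to 11723974 in si-DYRK1A, and each pair of libraries within a group differed by more than sampling noise (chi-square per degree of freedom 2.65 to 6.48). The targeted gene did not check the labels. The annotated row of Dyrk1a held 0 to 3 counts in every library, and the unannotated row that covers it was at 74.5 to 80.9 CPM (counts scaled to library size, with TMM factors) in si-NC and 80.1 to 85.4 in si-DYRK1A, which is not lower. Protein was not measured in these files, so here the knockdown is known from the labels, and the second group is called the libraries labelled si-DYRK1A. Of the 12 cardiomyocyte markers, Tnni3, Myh6, Myh7, Myl2 and Mb were listed at 0 on their own rows, and an unannotated row covered each of them. The row over Myh6 and Myh7 held 1257 to 1616 counts per library, that over Tnni3 178 to 243, that over Myl2 50 to 79 and that over Mb 1 to 3. Myl7 and Ryr2 held 2 and 22 counts in all on their own rows. The unannotated rows over them held 0 to 3 and 4 to 13 counts per library.

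Carbonic anhydrases catalyse the reversible hydration of carbon dioxide to bicarbonate and a proton, inside the cell (the cytosolic isoforms) or at its outer face (the membrane-bound isoforms). Sodium-proton exchangers of the Slc9 family move protons out of the cell in exchange for sodium. Transporters of the Slc4 family carry bicarbonate, out of the cell in exchange for chloride or into it with sodium. Contracting cardiomyocytes produce carbon dioxide and lactic acid continuously, and both have to be cleared from the cell.

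Of the 9 genes, 5 were called higher in the libraries labelled si-DYRK1A: the carbonic anhydrases Car2, Car3, Car4 and Car9 and the exchanger Slc9a3. None was called lower (0 of 9). Car14, Slc4a2 and Slc4a7 were tested and not called, which makes 3, and the annotated row of Car12 was too low for the test. A call is an adjusted p below 0.05 in edgeR's quasi-likelihood test over all 15513 features that passed the filter on low counts. Among those features, 15.2% were called, 8.03% higher and 7.19% lower, but because the members were chosen on this same comparison, nothing is read from their larger share. The median log2 fold change over the 8 tested members was 0.69, against 0.002 over all features, whose median absolute log2 fold change was 0.176. The values of the groups did not overlap for 6 of the members (the 5 called genes and Slc4a7), and this was so for 31.5% of all features.

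**Figure D1:**
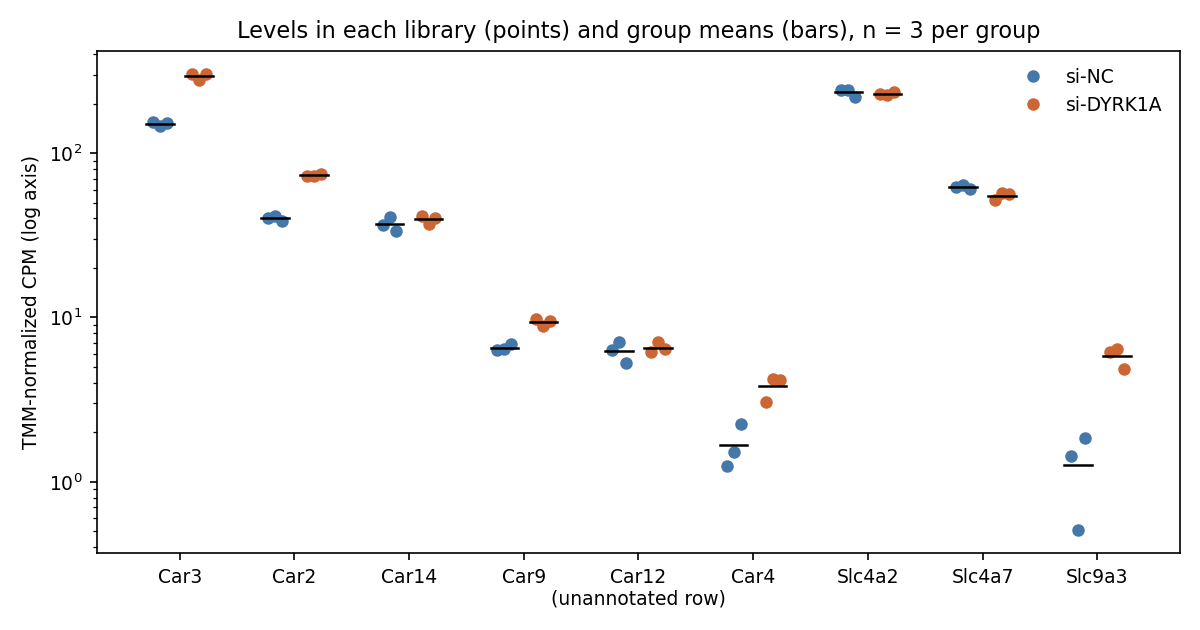
TMM-normalized CPM of each gene (log axis) in the 3 si-NC and the 3 si-DYRK1A libraries, with points for libraries and bars for group means; Car12 is shown by its unannotated row. The si-DYRK1A points of Car3, Car2, Car9, Car4 and Slc9a3 lie above all si-NC points, those of Slc4a7 lie below, and the groups overlap for Car14, Car12 and Slc4a2.

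Promoter sequences from RefSeq (GRCr8) were at hand for 6 of the 9 genes (Car4, Car9, Car12, Car14, Slc9a3 and Slc4a2). They are shown for the 3 called genes among them, so that the sequence around their start sites can be read beside their values. The positions are those of the GRCr8 build and not of the build used for the counts. Capitals mark each ACGTG or its reverse complement CACGT, a form of the core letters of hypoxia response elements. GCGTG, another form of that core, was not searched for and is not marked or counted. Where both run together as CACGTG, the 6 letters are the canonical E-box. The first base of the transcript is numbered 1, and the base before it -1.
Slc9a3, chr1:30996003-30996252, minus strand, the 250 bases before the start: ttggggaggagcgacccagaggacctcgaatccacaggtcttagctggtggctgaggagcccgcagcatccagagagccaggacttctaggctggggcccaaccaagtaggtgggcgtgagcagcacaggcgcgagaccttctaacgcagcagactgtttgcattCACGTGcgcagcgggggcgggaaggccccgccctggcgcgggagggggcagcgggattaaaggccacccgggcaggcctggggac
Car4, chr10:70325108-70325357, plus strand, the 250 bases before the start: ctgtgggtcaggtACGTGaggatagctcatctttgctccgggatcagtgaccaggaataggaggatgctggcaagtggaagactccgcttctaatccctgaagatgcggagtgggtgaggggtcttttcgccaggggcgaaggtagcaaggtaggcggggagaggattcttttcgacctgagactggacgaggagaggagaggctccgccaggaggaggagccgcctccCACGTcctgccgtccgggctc
Car9, chr5:62558774-62559033, plus strand, 260 bases that run past the start: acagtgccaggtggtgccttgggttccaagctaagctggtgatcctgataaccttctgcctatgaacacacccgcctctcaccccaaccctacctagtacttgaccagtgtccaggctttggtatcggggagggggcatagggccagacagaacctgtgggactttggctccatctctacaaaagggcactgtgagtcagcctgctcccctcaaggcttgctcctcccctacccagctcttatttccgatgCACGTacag
The Slc9a3 window holds the E-box at -85 to -80, Car4 holds 2 matches at -237 to -233 and -21 to -17, and Car9 holds 1 at 2 to 6. In windows of 300 bases (250 before the start and 50 after it), ACGTG on either strand occurred in 5 of the 6 members, including Car12 and Car14, which were not called, and not in Slc4a2. It occurred in 19.3% of 33469 promoters. CACGTG occurred in 1 of the 6 (Slc9a3) and in 6.4% of all promoters. The matches are a description of letters and not of bound sites. The Slc4a2 window was the richest in G and C among the 6 (75%, with 39 CpG), and that of Car9 the poorest (57.7%, with 6 CpG).

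Of the carbonic anhydrases, the cytosolic isoforms Car3 and Car2 rose the most in absolute level. Car3 (ENSRNOG00000010079, chromosome 2, 88126667 to 88135410, minus strand, Rnor_6.0) encodes a cytosolic isoform of low hydratase activity that is abundant in skeletal muscle, liver and fat. Its level was 154, 146 and 152 CPM in si-NC 1 to 3 and 304, 277 and 301 CPM in the libraries labelled si-DYRK1A 1 to 3. Every si-DYRK1A library was far above every si-NC library, with a mean of 151 ± 4.07 against 294 ± 14.8 CPM (SD, n = 3). The log2 fold change was 0.97 (SE 0.0482, 95% interval 0.87 to 1.07), or 1.95-fold. Over all 15513 features, 222 were called with a log2 fold change at least as large in either direction.

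Car2 (ENSRNOG00000009629, chromosome 2, 88097720 to 88113029, minus strand) encodes the cytosolic isoform of high activity found in red cells, kidney and many other tissues. Its level was 40.2, 41.5 and 38.4 CPM in si-NC and 73.0, 72.4 and 74.3 CPM in si-DYRK1A. The libraries of each group lay close together, and the groups were far apart, at 40.0 ± 1.58 and 73.2 ± 0.940 CPM (SD, n = 3). The log2 fold change was 0.87 (SE 0.0657, 95% interval 0.73 to 1.01), or 1.83-fold. Car2 and Car3 are neighbours on the same strand, with 13637 bases between them. Further carbonic anhydrases lie in this cluster. Car1, the red cell isoform, lies 81777 bases beyond Car3, held 0 to 7 counts and was not tested. Car13, a further cytosolic isoform, was at 23.2 CPM in si-NC and 20.4 in si-DYRK1A, with a log2 fold change of -0.19 (edgeR, adjusted p = 0.212).

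Among the membrane-bound isoforms, Car4 and Car9 were called higher and Car14 was not. Car4 (ENSRNOG00000002916, chromosome 10, 72272248 to 72281067, plus strand), which is anchored to the outer face of the membrane by a lipid, held 13, 18 and 27 counts in si-NC and 35, 45 and 48 in si-DYRK1A. This corresponds to 1.68 ± 0.523 and 3.82 ± 0.647 CPM (SD, n = 3), with no overlap. The log2 fold change of 1.17 was larger than that of Car3 but far less precise (SE 0.280, 95% interval 0.59 to 1.75).

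Car9 (ENSRNOG00000017073, chromosome 5, 59008933 to 59015528, plus strand) encodes a transmembrane isoform known as a target of hypoxia-inducible factor. It was at 6.33, 6.43 and 6.94 CPM in si-NC and 9.85, 8.85 and 9.52 CPM in si-DYRK1A, so that the groups did not overlap. The means were 6.57 ± 0.328 and 9.41 ± 0.509 CPM (SD, n = 3), and the log2 fold change was 0.52 (SE 0.154, 95% interval 0.20 to 0.84). This was the least secure of the 5 calls. It was lost with DESeq2 and when si-NC 1, si-NC 2, si-DYRK1A 1 or si-DYRK1A 3 was left out, although the log2 fold change stayed between 0.48 and 0.56 when single libraries were left out.

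Car14 (ENSRNOG00000023162, chromosome 2, 198010349 to 198016898, minus strand), a transmembrane isoform known from heart, liver and brain, was at 36.5, 40.8 and 33.7 CPM in si-NC and 41.6, 37.1 and 40.5 CPM in si-DYRK1A. The groups overlapped, and the log2 fold change was 0.10 (SE 0.0838), with a 95% interval of -0.07 to 0.28 that leaves out a change of the size seen for Car2 or Car3. A short unannotated row on the opposite strand lies inside Car14 (198010669 to 198011036) and held 52, 70 and 59 counts in si-NC and 61, 46 and 32 in si-DYRK1A. Whether the counting used strand is not stated, so reads of the pair cannot be told apart with certainty.

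Car12 (ENSRNOG00000017766, chromosome 8, 72405748 to 72460240, plus strand) encodes a further transmembrane isoform. Its annotated row held 2 counts in all, both in si-DYRK1A 2. The unannotated row that spans it (72405414 to 72461417, plus strand) held 432 counts, with 66, 84 and 63 in si-NC and 70, 75 and 74 in si-DYRK1A. The groups overlapped on that row, at 6.23 ± 0.922 and 6.54 ± 0.468 CPM (SD, n = 3). With both rows summed, the log2 fold change was 0.08 (SE 0.178, 95% interval -0.29 to 0.45). Car12 thus cannot be read from its annotated row in this table, and whether the unannotated row holds all of its reads is not known.

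**Figure D2:**
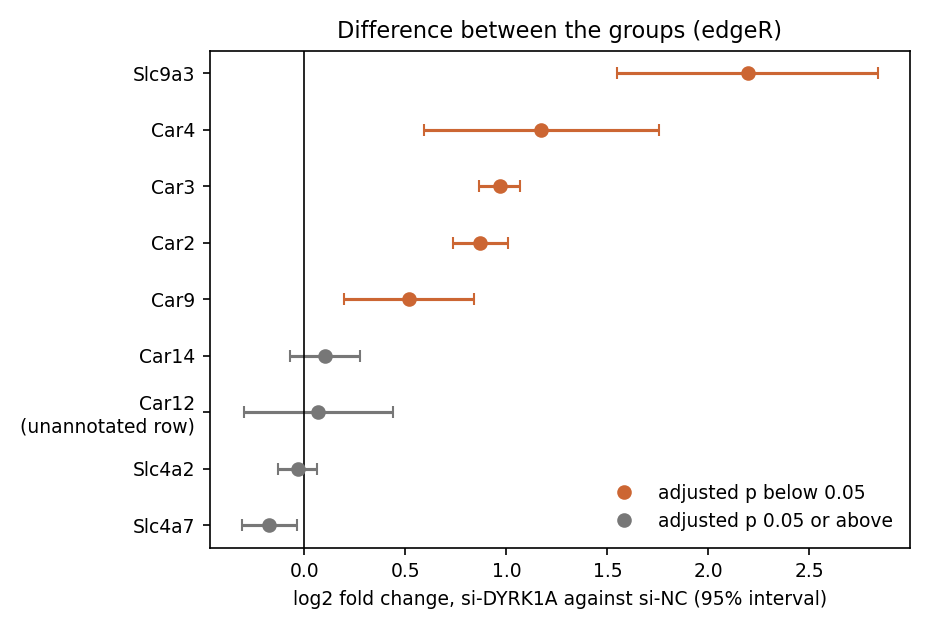
Log2 fold change of each gene in si-DYRK1A against si-NC, with 95% intervals from edgeR; orange marks an adjusted p below 0.05. The values run from -0.17 for Slc4a7 to 2.19 for Slc9a3, and the intervals of Car14, Car12 (unannotated row) and Slc4a2 include 0.

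FPKM (counts per length, scaled per library) allows the isoforms to be compared with each other. In si-NC, Car3 came first at 94.4 ± 2.28 FPKM (SD, n = 3), followed by Slc4a2 at 57.6, Car14 at 29.4, Car2 at 24.3, Slc4a7 at 14.8 and Car9 at 3.16 FPKM. The unannotated row over Car12 (1.52) and Car4 (1.28) came next and overlapped in their ranges, and Slc9a3 was last of the tested genes at 0.243 FPKM. All other neighbours in this order had ranges that did not overlap.

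Summed over the 6 carbonic anhydrases, with the unannotated row for Car12, the level was 155, 156 and 152 FPKM in si-NC and 276, 256 and 274 in si-DYRK1A. Nearly all of the rise lay in the cytosolic pair, which went from 118.6 ± 1.61 to 228.0 ± 9.41 FPKM (SD, n = 3), while the membrane-bound isoforms went from 35.4 ± 2.83 to 40.5 ± 1.62. Car3 made up 61.3% ± 2.04 of the sum in si-NC and 68.4% ± 0.592 in si-DYRK1A. Car2 held nearly the same share in both (15.7% and 16.5%). These are shares of the 6 genes, which were chosen by their values in this comparison. Other carbonic anhydrases are not in the sum, such as Car13 (11.7 and 10.2 FPKM on average) and Car8 (19.1 and 23.4 FPKM). The membrane-bound isoforms made up 23.0% ± 1.60 of the sum in si-NC and 15.1% ± 0.0185 in si-DYRK1A, although their own level was not lower.

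**Figure D3:**
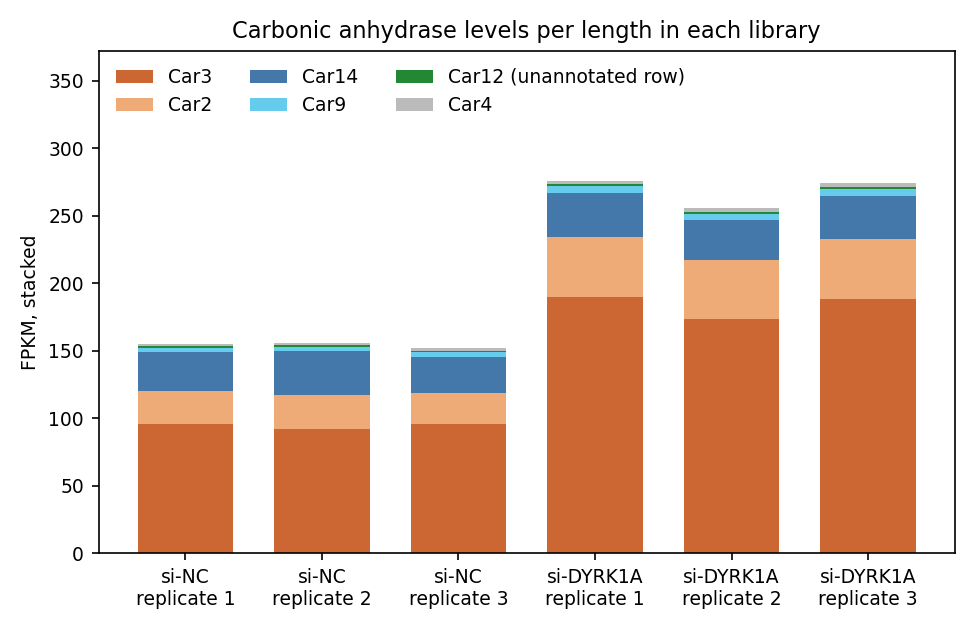
FPKM of 6 carbonic anhydrases stacked for each library, with Car12 shown by its unannotated row. The stacks reach 152 to 156 FPKM in si-NC and 256 to 276 in si-DYRK1A, and the orange segments (Car3 and Car2) account for most of the difference.

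Slc9a3 showed the largest fold difference of the 9 genes from the lowest level. Slc9a3 (ENSRNOG00000015159, chromosome 1, 31734327 to 31777070, minus strand), the exchanger of the apical membrane in kidney and intestine, held 15, 6 and 22 counts in si-NC and 70, 68 and 56 in si-DYRK1A. The lowest si-DYRK1A library had more than double the count of the highest si-NC library. The means were 1.26 ± 0.683 and 5.80 ± 0.837 CPM (SD, n = 3), and the log2 fold change was 2.19 (SE 0.309, 95% interval 1.55 to 2.84), or 4.58-fold. With Slc9a3 counted, 4 annotated genes were called with a log2 fold change of this size or more in either direction. Unannotated rows were left out of this count, unlike that given for Car3. Because Slc9a3 was chosen on this comparison, nothing is read from its rank. In FPKM its mean went from 0.243 to 1.11, which is still below Car9 in either group. When single libraries were left out, the log2 fold change ranged from 1.81 to 2.59 and the call held each time.

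The bicarbonate transporters were not called. Slc4a2 (ENSRNOG00000014347, chromosome 4, 7264683 to 7281223, minus strand), a chloride-bicarbonate exchanger present in most tissues, was at 242, 242 and 220.4 CPM in si-NC and 228, 225 and 235 CPM in si-DYRK1A. The groups overlapped, and its log2 fold change of -0.03 had a narrow 95% interval of -0.13 to 0.06 (SE 0.0475). Slc4a7 (ENSRNOG00000005957, chromosome 15, 11836286 to 11912916, minus strand), an electroneutral sodium-bicarbonate cotransporter, was at 61.8, 64.2 and 60.4 CPM in si-NC and 52.1, 57.2 and 56.0 CPM in si-DYRK1A. All 3 libraries labelled si-DYRK1A were below all 3 of si-NC, with a log2 fold change of -0.17 (SE 0.0658, 95% interval -0.31 to -0.04) that was not called over all features.

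The annotated genes with profiles most like those of Car3 and Slc9a3 were found among 8195 whose mean log2 CPM reached 1, by the root mean square difference of log2(CPM + 0.5) over the 6 libraries, each gene set to a si-NC mean of 0. Those nearest to Car3 were Ugt1a5 (0.0728), Esm1 (0.0730), Ptx3 (0.0862), Nap1l5 (0.0901) and its neighbour Car2 (0.0940), with log2 fold changes of 0.87 to 1.03. Those nearest to Slc9a3 were Cldn11 (0.263), Bco1 (0.402), Cpa1 (0.419), Cd300e (0.447) and Epha8 (0.474), with log2 fold changes of 1.60 to 2.42. With each gene set to a si-NC mean of 0, the measure depends in large part on the difference between the groups. The alike log2 fold changes follow from this, and Car2 was itself chosen on this comparison. Ugt1a5 belongs to a gene family that shares exons, and its counts are uncertain for that reason.

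The rest of the pH machinery was read from lists of 86 further genes, of which 85 were in the table and 52 passed the filter. Of these 52 genes, 4 were called higher (7.69%, against 8.03% of all features) and 4 lower (7.69%, against 7.19%), with a median log2 fold change of -0.02. The shares are near the background. Among the 33 genes that were not tested, 15 were covered by an unannotated row on the same strand.

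Of the other carbonic anhydrases, 1 of 4 tested was called higher and none lower. That gene was Car8, a family member without catalytic activity, which went from 28.1 to 34.5 CPM (log2 fold change 0.30, SE 0.0832, edgeR adjusted p = 0.0178). Of the other sodium-proton exchangers and their cofactors, 2 of 10 were called lower and none higher, with a median of -0.20. Chp2, a calcium-binding cofactor of these exchangers, went from 2.12 to 0.926 CPM (log2 fold change -1.18, SE 0.374, edgeR adjusted p = 0.035).

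Of the other bicarbonate transporters and cofactors, 1 of 8 was called higher, Slc4a11, a member of the Slc4 family that is not known as a bicarbonate carrier. It went from 7.47 to 11.5 CPM (log2 fold change 0.62, SE 0.162, edgeR adjusted p = 0.0117). Slc4a3, the chloride-bicarbonate exchanger of heart and brain, was listed at 0 on its annotated row. The unannotated row over it, looked at after its values were seen, was at 29.1, 29.5 and 28.1 CPM in si-NC and 39.0, 37.2 and 39.5 in si-DYRK1A. The groups did not overlap, and the log2 fold change was 0.42 (SE 0.0783, edgeR adjusted p = 0.000744). It was the 1 gene called among 9 genes that could be tested only with such rows summed, and the others had log2 fold changes of -0.58 to 0.73 (edgeR, lowest adjusted p = 0.134). None of 3 monocarboxylate transporters and chaperones and none of 6 acid sensors were called.

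Of 21 proton pump and channel genes, 2 were called higher and 2 lower. Both potassium-exchanging pumps that were tested were higher: Atp12a, the non-gastric proton-potassium pump, went from 10.2 to 17.6 CPM (log2 fold change 0.79, SE 0.130, edgeR adjusted p = 0.000202). Atp4a, the catalytic subunit of the gastric pump, went from 1.88 to 3.75 CPM (1.00, SE 0.257, edgeR adjusted p = 0.0103), while its partner Atp4b was at 0 CPM in si-NC and 0.180 in si-DYRK1A and was not tested. The 2 lower genes were subunits of the vacuolar proton pump. Its other tested subunits were not called and had log2 fold changes on both sides of 0. Atp6v1a, the catalytic subunit, went from 372 to 319.8 CPM (-0.22, SE 0.0432, edgeR adjusted p = 0.0013), and Atp6v0c, which forms the proton-carrying ring, went from 648 to 583 CPM (-0.15, SE 0.0441, edgeR adjusted p = 0.0199).

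Each of the calls named here from the 86 genes' lists was lost under at least 1 alternative, apart from that of Slc4a3, which was not followed. Across 15 alternatives Atp12a and Atp6v1a kept the call in 14, Slc4a11 and Atp4a in 10, Car8 in 9 and Atp6v0c in 8, and Chp2 kept it in 5 of 14. The number called higher fell to 2 without si-NC 1, si-DYRK1A 1 or si-DYRK1A 3. The number called lower fell to 1 without si-NC 1 or si-DYRK1A 1, and to 2 without si-NC 2, si-DYRK1A 2 or si-DYRK1A 3.

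**Figure D4:**
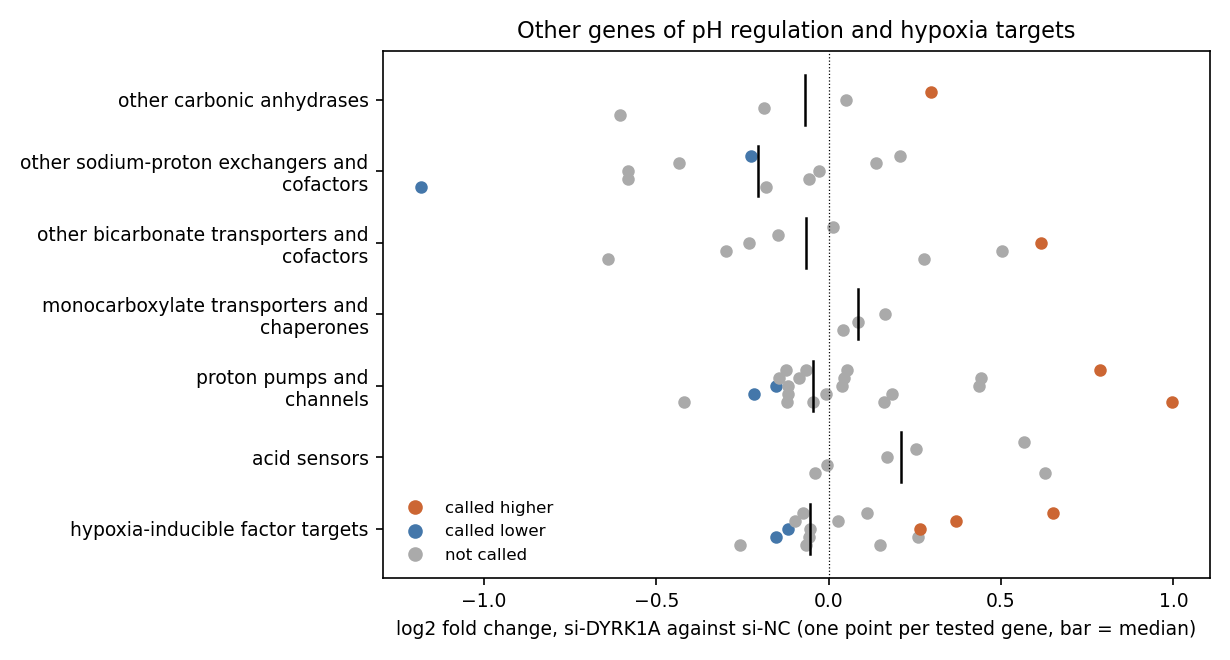
Log2 fold change in si-DYRK1A against si-NC of each tested gene in 7 lists of pH genes and hypoxia targets, with a bar at each list's median. Points lie on both sides of 0 in every list but the monocarboxylate transporters, and called genes (orange higher, blue lower) are few.

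Because Car9 is a known target of hypoxia-inducible factor, 20 other known targets were read in the same way. Of 15 tested, 3 were called higher (20%, against 8.03% of all features) and 2 lower (against 7.19% of all features), with a median log2 fold change of -0.05. The other 5 (Vegfa, Egln1, Adm, P4ha1 and P4ha2) were too low on their own rows to be tested. Each of these 5 was covered by an unannotated row, so the list was read only in part. Egln3, a prolyl hydroxylase that acts on the factor itself, went from 128.8 to 202.2 CPM (log2 fold change 0.65, edgeR adjusted p = 7.48e-09). Slc2a1, a glucose transporter, rose by 0.37 (edgeR adjusted p = 4.31e-06) and Ddit4, an inhibitor of mTOR signalling, by 0.26 (edgeR adjusted p = 0.00358). The glycolytic enzymes Aldoa (-0.15, edgeR adjusted p = 0.0152) and Ldha (-0.12, edgeR adjusted p = 0.0341) were lower. Egln3 and Slc2a1 kept their calls in all 15 alternatives and Ddit4 in 14, while Aldoa kept its call in 10 and Ldha in 7.

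Markers of the cell types that such a culture can hold were summed beside these results, and their part in them was not tested. In bulk RNA, more cells of a type and more RNA per cell cannot be told apart. Of 5 tested cardiomyocyte markers, 4 were called higher (Actc1, Actn2, Pln and Nppa), and the sum over the list was 18963 to 19667 CPM in si-NC and 22221 to 23175 in si-DYRK1A. Most of that sum was Actc1 (9976 and 10880 CPM on average) and Nppa (7557 and 9782 CPM). The remaining tested marker, Tnnt2, was not called (log2 fold change -0.14). It held 111 to 148 counts per library on its own row, which an unannotated row covers. The other 7 of the 12 markers were not tested, and each of them was also covered by an unannotated row. Of 6 tested mesothelial markers, 5 were called lower (126.6 to 134.8 against 93.0 to 96.7 CPM, Upk1b at 0), and so were 3 of 8 endothelial markers (188.6 to 208.8 against 158.8 to 166.3 CPM, Cldn5 at 0). Of 7 fibroblast markers 2 were higher (Lum and Postn), with sums of 22107 to 26829 and 20917 to 21674 CPM and with Pdgfra and Ddr2 at 0 on their own rows. The unannotated rows over Pdgfra and Ddr2 held 93 to 120 and 5303 to 6499 counts per library. Postn is also covered by an unannotated row and held 71 to 182 counts on its own, so its call covers only part of its reads at most. The fall in the fibroblast sum was mostly Col1a1 (14341 and 11113 CPM on average), which was not called. Of 9 macrophage markers 2 were higher, Lyz2 and Cd163 (265.3 to 281.6 against 272.5 to 317.0 CPM for the list, Cd68 at 0). Cd163 is covered by an unannotated row and held 43 to 116 counts on its own. In the smooth muscle list, 1 of 3 tested markers was lower (2708 to 2914 against 2504 to 2637 CPM, with Acta2, Myh11 and Smtn at 0). The lower marker was Des (2259 and 2031 CPM on average), which made up most of that sum. Des is not particular to smooth muscle among muscle cells, so nothing is read from its fall about smooth muscle cells. Cnn1 (556 and 554 CPM) and Tagln were not called, so the fall of the sum is that of 1 gene.

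Erythroid cells are known for Car2, and skeletal muscle and fat for Car3. Markers of these 3 were read as well, and their part in the levels of Car2 and Car3 was not tested. Lists for other tissues with these isoforms were not read. None of 7 tested erythroid markers was called, and the sum over the list was 37.7 to 43.9 CPM in si-NC and 38.4 to 48.7 in si-DYRK1A. That sum rested largely on a globin row named Hba-a2, matched to Hba1 by an older symbol. It held 184 to 306 counts per library (19.6 and 24.4 CPM on average) and was not called, while Hbb held 0 to 3 counts. Hba-a2 has 2 rows, of which the 1 with more counts was read, and an unannotated row covers it. None of 5 tested skeletal muscle markers was called (103.7 to 118.2 against 110.1 to 121.2 CPM), and most of that sum was Ckm (87.7 and 84.4 CPM on average). The log2 fold change was negative for Ckm (-0.05) and positive for the other 4. It was largest for Pvalb (0.63, edgeR adjusted p = 0.0529) and Tnnt3 (0.42, edgeR adjusted p = 0.116). Of 8 adipocyte markers only 3 could be tested, and 1 of these was lower. The sum was 19.1 to 20.7 against 17.4 to 18.7 CPM, Adipoq held 0 to 2 counts, Plin1 0 to 5, and Fabp4 was at 0.

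**Figure D5:**
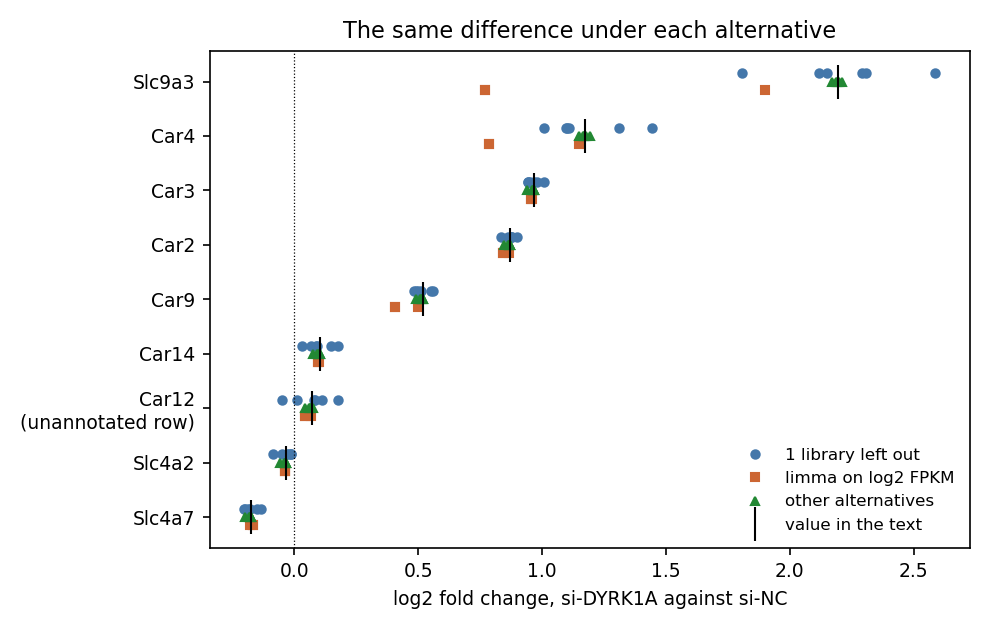
Log2 fold change of each gene under every alternative of the processing, with black bars for the values given above. Car3 stayed between 0.94 and 1.01 and Car2 between 0.83 and 0.90, whereas Slc9a3 ran from 0.77 to 2.59 and Car4 from 0.78 to 1.44, the lowest of both with 1 added to each FPKM.

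Across alternatives, the calls held most often for the abundant genes and for Slc9a3. Car2 and Car3 were called in all 16 alternatives tried, Slc9a3 in all 15 that could be run, Car4 in 15 of 16 and Car9 in 10 of 16. Car14 and Slc4a2 were called in none of 16, and Slc4a7 in 1, when libraries were scaled by their totals only.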

How the data were processed

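RNA-seq was performed on 6 libraries, and groups and replicate numbers came from the labels. Reads were mapped by the authors to Rnor_6.0 with HISAT2 (v2.0.5). The submitters' processing notes instead name Bowtie 0.12.2 and mm8, a mouse build, while the positions in the table are those of rat genes. Which tool counted the reads, on which annotation and with which strand setting, was not given in the sources used here. Deposited values were raw counts per gene, and FPKM, which the authors made from counts and gene length; in the values, FPKM equals count over length times 1 constant per library. Length was used only to check this.

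Counts were analysed in R 4.3.3 with edgeR 4.0.16 (robust quasi-likelihood test, TMM factors, filterByExpr with a minimum count of 10 and a minimum total of 15). Two-sided p-values were adjusted after Benjamini and Hochberg over all 15513 features, with a threshold of 0.05. Overlaps with unannotated rows used GenomicRanges 1.54.1. The fit was tested on simulated data. Alternatives were DESeq2 1.42.0, RLE normalization, library size only, no filter, the replicate number as a block, a minimum of 10 counts in each library, limma 3.58.1 on log2(FPKM + 1) or log2(FPKM + 0.1) for features with FPKM above 0.5 (the former also without that filter), each library left out, and unannotated rows summed with genes. The summing for genes other than the members and a threshold of 0.01 were chosen after seeing the data.

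The members, lists and tests were chosen with earlier results of these data known. Named were all members and their unannotated rows, up to 6 called genes per other pH or hypoxia list, and the 5 annotated genes nearest to Car3 and to Slc9a3. A called gene of the lists is not reported here. Of 204 listed symbols, 194 matched by symbol and 4 by an older symbol. At 13 to 27 counts (Car4) or 6 to 22 (Slc9a3) per si-NC library, precision is low, as the standard errors show.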

Additional observations from a re-analysis of the deposited data

How the results depend on the processing

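No called member changed sign under any alternative. The number of all features called, 2360, was 1199 with limma on log2(FPKM + 1), 1180 on log2(FPKM + 0.1), 591 with limma on log2(FPKM + 1) without its filter (edgeR without a filter, 2573), 1575 with DESeq2 and 1614 to 2210 with 1 library left out. The number of members called, 5, was 3 with limma on log2(FPKM + 1) without its filter, 6 with library size only, 4 at an adjusted p below 0.01 and 4 to 5 with 1 library left out. Slc9a3 could not be tested at 10 counts in every library. Of other pH genes, the 4 called higher became 2 with DESeq2, 2 with limma on log2(FPKM + 1), 2 on log2(FPKM + 0.1), 0 with limma on log2(FPKM + 1) without its filter (edgeR without a filter, 4) and 2 to 5 with 1 library left out. The 4 called lower became 2 with DESeq2, 8 with library size only, 1 with limma on log2(FPKM + 1), 1 on log2(FPKM + 0.1), 0 with limma on log2(FPKM + 1) without its filter (edgeR without a filter, 5) and 1 to 3 with 1 library left out. The cause was not tested. Fewer libraries enter a fit with 1 left out, and adding 1 to FPKM shrinks the differences of genes below 1 FPKM.

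Libraries with the same number did not deviate together (correlations of 0.0631, -0.0240 and -0.00698), and not every library correlated best with its own number. With the replicate block, 2269 features were called (1193 higher and 1076 lower), 5 members, and 4 other pH genes in each direction.

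Depth limits Slc9a3 and Car4 in si-NC, and Car12 and Slc4a3 can be read only from unannotated rows. Among cardiomyocyte markers this also holds for Tnni3 and Myl2, while the row over Myh6 and Myh7 does not separate them. Mb (1 to 3 counts per library), Myl7 (0 to 3) and Ryr2 (4 to 13) were low on the unannotated rows too.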
